A study of Mus musculus with 16 samples.

Results

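The genes of AP-1 and immediate early transcription factors, with a related early gene (Ier3), were 10 genes chosen by symbol: Fos, Fosb, Fosl1, Fosl2, Jun, Junb, Jund, Atf3, Egr1 and Ier3. They were read by 14 probe sets annotated to 1 of these symbols alone, of 45037 probe sets other than controls, and stood for 10 of 18193 genes. The array results come from airway epithelial cells of C57BL/6 mice grown at an air-liquid interface, in 4 groups of 4 cultures with 1 array each. The groups were Mmp7-/- (Mmp7-null) cultures with 3 parallel scratches, Mmp7-null cultures without injury, wild-type cultures with 3 parallel scratches, and wild-type cultures without injury. Mmp7 encodes matrilysin, a metalloproteinase secreted by injured epithelium. RNA of all groups was taken after 24 hours without serum. The time between scratching and harvest, the age of the mice and the animals behind each culture are not given in the sources used here, so the tests measure only the spread between these 16 cultures.

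AP-1 is a dimer of basic leucine zipper proteins. A Fos or Atf protein pairs with a Jun protein, or Jun proteins pair with each other, and the dimer binds a short palindromic DNA site. Many of these genes are immediate early genes: they are transcribed within minutes of growth factor, stress or wound signals without new protein synthesis, and their transcripts are short-lived. At a wound in an epithelium they are known for early induction in the cells next to the edge. Egr1 is a zinc finger factor of the same early class, and Ier3 is an early response protein that acts on cell survival and mitogen-activated kinase signalling.

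The promoters of 4 of the members are shown because serum, cyclic AMP and AP-1 elements are the known inputs of early genes. Of the 4 members, 3 (Fos, Fosl2 and Atf3, not Jun) passed the test together after a scratch in Mmp7-null cultures. Sequences are from RefSeq on GRCm38.p6 and run from 250 bases before to 50 bases after the transcription start, and 8 of the 10 members matched an entry (not Fosl1 or Egr1). Capitals mark the motif matches that are named after the sequences.

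Fos, chr12:85473640-85473939, forward strand: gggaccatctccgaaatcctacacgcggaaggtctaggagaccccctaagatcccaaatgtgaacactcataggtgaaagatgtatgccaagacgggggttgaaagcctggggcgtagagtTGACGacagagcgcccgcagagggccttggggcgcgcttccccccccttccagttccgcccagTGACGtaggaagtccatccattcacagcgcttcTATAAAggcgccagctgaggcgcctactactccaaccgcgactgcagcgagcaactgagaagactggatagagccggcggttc

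Fosl2, chr5:32136222-32136521, forward strand: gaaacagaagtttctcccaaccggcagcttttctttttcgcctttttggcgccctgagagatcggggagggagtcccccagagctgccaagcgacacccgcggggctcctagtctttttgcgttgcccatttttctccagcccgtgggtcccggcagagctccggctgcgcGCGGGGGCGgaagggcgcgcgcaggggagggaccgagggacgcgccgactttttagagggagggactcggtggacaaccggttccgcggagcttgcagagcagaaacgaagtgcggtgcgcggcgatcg

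Jun, chr4:95052173-95052472, reverse strand: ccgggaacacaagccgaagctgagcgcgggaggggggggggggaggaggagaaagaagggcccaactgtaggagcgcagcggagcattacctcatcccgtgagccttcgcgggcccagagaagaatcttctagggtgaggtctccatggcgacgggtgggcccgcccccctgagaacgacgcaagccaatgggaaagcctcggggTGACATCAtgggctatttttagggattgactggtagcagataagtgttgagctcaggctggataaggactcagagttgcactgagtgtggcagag

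Atf3, chr1:191183284-191183583, reverse strand: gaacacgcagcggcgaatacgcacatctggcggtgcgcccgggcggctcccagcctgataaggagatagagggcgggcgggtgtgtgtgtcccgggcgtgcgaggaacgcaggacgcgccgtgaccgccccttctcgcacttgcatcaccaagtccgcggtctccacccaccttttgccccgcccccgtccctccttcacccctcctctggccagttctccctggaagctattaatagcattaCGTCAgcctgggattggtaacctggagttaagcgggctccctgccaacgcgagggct

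In the 8 promoter windows, no match was found to the AP-1 site TGANTCA, to the full cyclic AMP response element TGACGTCA or to a CArG box, the core of serum response elements. Over all 32851 windows of the same length, 7.81%, 1.79% and 1.63% held these motifs. The EGR site GCGGGGGCG lay 79 bases before the start of Fosl2 and 50 bases before that of Fosb, and 2.91% of all windows held it. The next 3 motifs were chosen after that search. The shorter cyclic AMP site TGACG was present in Fos (129 and 66 bases before the start), Fosb, Junb and Atf3 (7 bases before the start), against 20.8% of all windows. Both strands were searched for these motifs, and it is contained in the full element. The Jun site TGACATCA lay 45 bases before the start of Jun (both strands; 3.62% of all windows). The TATA box TATAAA, searched on the coding strand, lay 33 bases before the start of Fos and on the first transcribed base of Junb (8.32% of all windows). Neither a match nor its absence in this window says whether a factor bound there. Elements more than 250 bases before the start were not searched, so no match here does not mean that a gene lacks the element.

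On the log2 scale, array background had a 95th percentile of 2.77, taken from spiked-in control transcripts on the arrays that lacked them. The leading probe sets of 8 members were above it on all 16 arrays, and those of Fosb and Fosl1 were not. Fosb, a Fos protein with a short splice form known from neurons, lay between 2.08 and 2.15 on every array and had no measurable level. Fosl1 (FRA-1), a Fos protein without a transactivation domain that is known from migrating epithelial cells, was above background on 2 arrays. These were Mmp7-null scratched replicate 3 at 2.80 and wild-type scratched replicate 1 at 3.28, and the second Fosl1 probe set was at background on all 16 arrays. No difference is given for either gene. All values below are log2 intensities, or differences between group means of them with the standard error (SE) from limma, and a gene is called at an adjusted p under 0.05 over all 18193 genes.

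The Mmp7 probe set was at background in all 4 groups (2.13 to 2.59 in Mmp7-null and 2.13 to 2.25 in wild-type cultures), so it could not check the genotype labels. Of 6 markers of airway epithelium, 6 were above background, and so were all 4 club cell, 6 multiciliated and 6 basal cell markers. The arrays carry 1 of 3 spiked-in controls. The Lys control was on 4 Mmp7-null arrays, the Phe control on 4 Mmp7-null and 2 wild-type arrays, and the Trpn control on 6 wild-type arrays. What they stand for is not stated, so the set was treated as a possible batch. Wild-type scratched replicate 4 had the widest gap between the 3′ and 5′ ends of the actin control (2.62 against 1.53 to 1.93 on the other arrays). Wild-type scratched replicate 3 and Mmp7-null scratched replicate 1 had the lowest upper quartiles of intensity (115.0 and 119.1 against 125.8 to 134.0), and these 3 arrays are called doubtful below.

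**Figure D1:**
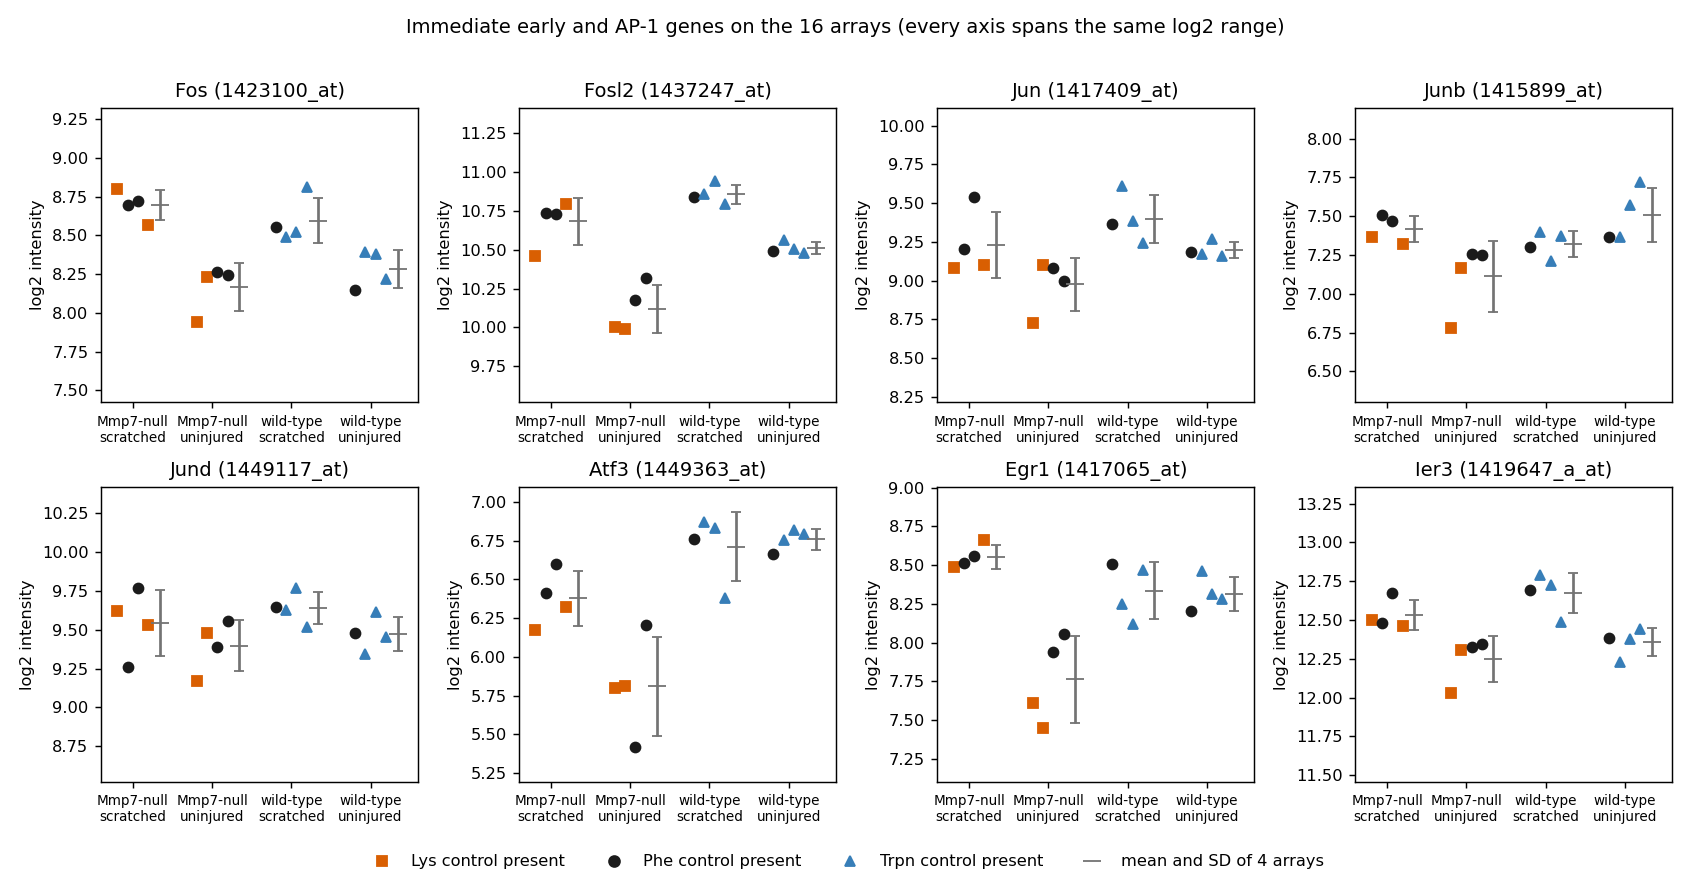
Log2 intensity (vertical axes, each spanning the same range) of the 8 members above background on each of 16 arrays, by group; symbols give the spiked-in control set, and grey marks give the mean and SD of 4 arrays. Atf3, Egr1 and Fosl2 in uninjured Mmp7-null cultures sit below all arrays of the other 3 groups, except that the highest Atf3 array (6.21) passes the lowest scratched Mmp7-null array (6.17).

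The first comparison asks how the early genes respond to a scratch in Mmp7-null epithelium. Of the 10 members 4 rose (Egr1, Fosl2, Atf3 and Fos) and none fell, by factors of 1.44 to 1.73. Over all genes 2.27% rose and 4.72% changed in either direction. The median of the 10 members, the 2 at background included, was 0.29, against -0.02 over all genes. RNA of a whole culture was measured, so a change in the number of cells of a type and a change in RNA per cell cannot be told apart.

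Egr1 (Entrez gene 13653), an early zinc finger activator, had 8.48, 8.51, 8.56 and 8.66 in scratched Mmp7-null cultures, against 7.61, 7.45, 7.94 and 8.06 in uninjured ones. The groups did not overlap, and the scratched cultures lay closer together (SD 0.08) than the uninjured ones (SD 0.28). The difference was 0.79 (SE 0.12, adjusted p = 0.00242). Among arrays with the Lys control it was 1.04 and among those with the Phe control 0.54, with 2 arrays per group in each and adjusted p = 0.00435 and 0.103. Fosl2 (FRA-2, Entrez gene 14284), a Fos protein found in differentiated epithelia, had 10.46, 10.74, 10.73 and 10.80 after scratching, against 9.999, 9.99, 10.17 and 10.32 without injury. Every scratched array was above every uninjured one, by 0.56 on average (SE 0.08, adjusted p = 0.00108). The Lys arrays alone gave 0.63 (adjusted p = 0.0166) and the Phe arrays 0.49 (adjusted p = 0.0807). A second, dim Fosl2 probe set, between 3.42 and 4.50 on all arrays, gave 0.15 (SE 0.17) and was not called.

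Fos (Entrez gene 14281), the founding member of the family, had 8.80, 8.69, 8.72 and 8.57 in scratched Mmp7-null cultures, against 7.94, 8.23, 8.26 and 8.25 in uninjured ones. The groups did not overlap, and uninjured replicate 1 stood below the other 3. Fos rose by 0.53 (SE 0.09, adjusted p = 0.00458), and its difference was 0.60 on the Lys and 0.45 on the Phe arrays (adjusted p = 0.0596 and 0.282). Atf3 (Entrez gene 11910), a stress-induced factor that represses or activates depending on its partner, had 6.17, 6.41, 6.60 and 6.32, against 5.80, 5.81, 5.42 and 6.21 without injury. The groups overlapped by 1 array, and the difference was 0.57 (SE 0.15, adjusted p = 0.0423). The Atf3 call rested on thin support: leaving out 1 of 6 single arrays ended it, as did a block for the spiked-in control (adjusted p = 0.0674) and the replicate number as a block (adjusted p = 0.0846), with the difference at 0.57 in both.

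The Jun genes, the obligate partners of the Fos proteins, were not called. Junb (Entrez gene 16477), which often restrains Jun, had 7.37, 7.51, 7.47 and 7.32 in scratched and 6.78, 7.16, 7.26 and 7.25 in uninjured Mmp7-null cultures. Its groups did not overlap, yet the difference of 0.30 (SE 0.10) had an adjusted p of 0.126. Jun (Entrez gene 16476), the strongest activator of the 3, had 9.08, 9.20, 9.54 and 9.10, against 8.72, 9.10, 9.08 and 8.998 without injury, and the groups overlapped. The Jun difference was 0.26 (SE 0.11, adjusted p = 0.225), with 0.33 (SE 0.09, adjusted p = 0.0811) from its second probe set. Jund (Entrez gene 16478), the most constant Jun gene in many tissues, lay between 9.17 and 9.77 on all 16 arrays and had a difference of 0.15 (SE 0.10, adjusted p = 0.57), and its other probe set was at background. Ier3 (Entrez gene 15937) had 12.50, 12.48, 12.67 and 12.46, against 12.03, 12.30, 12.33 and 12.34 without injury. These groups did not overlap, and the difference of 0.28 (SE 0.08) had an adjusted p of 0.0706.

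The same comparison in wild-type cultures asks how the genes respond to a scratch in the wild-type genotype. Here 2 of the 10 members rose (Fosl2 and Ier3) and none fell, against 2.55% of all genes that rose and 4.85% that changed. The members' median was 0.18, against 0.01 over all genes. The differences of Egr1 and Atf3 were 0.02 and -0.05.

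Fosl2 had 10.84, 10.86, 10.94 and 10.80 in scratched wild-type cultures, against 10.49, 10.57, 10.50 and 10.48 in uninjured ones. The groups did not overlap, and Fosl2 rose by 0.35 (SE 0.08, adjusted p = 0.0195). Its second, dim probe set gave 0.20 (SE 0.17) and was not called. Ier3 had 12.69, 12.79, 12.72 and 12.49, against 12.38, 12.23, 12.38 and 12.44. It rose by 0.32 (SE 0.08, adjusted p = 0.0396), with every scratched array above every uninjured one. Within the Trpn arrays, 3 against 3, Fosl2 was at 0.35 and Ier3 at 0.32 (adjusted p = 0.057 and 0.169). Without the 3 doubtful arrays Ier3 was at 0.38 (adjusted p = 0.0503), and with the replicate number as a block at 0.32 (adjusted p = 0.0623), and Fosl2 remained called in both. The Ier3 call was lost in 14 of 22 alternatives. Leaving out wild-type uninjured replicate 1 or 4, or wild-type scratched replicate 3, left neither call.

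Fos had 8.56, 8.49, 8.52 and 8.81 in scratched and 8.15, 8.40, 8.38 and 8.22 in uninjured wild-type cultures. The groups did not overlap, and the difference of 0.31 (SE 0.09) had an adjusted p of 0.0694. Egr1 had 8.51, 8.25, 8.12 and 8.47 after scratching, against 8.20, 8.46, 8.31 and 8.28 without injury. The groups were interleaved, with a difference of 0.02 (SE 0.12, adjusted p = 0.953). Atf3 had 6.76, 6.87, 6.83 and 6.38, against 6.66, 6.76, 6.82 and 6.79. Its lowest value was on scratched replicate 4, the array with the wide actin gap, and the difference was -0.05 (SE 0.15, adjusted p = 0.932). Leaving that array out gave 0.06. Junb had a difference of -0.19 (SE 0.10, adjusted p = 0.423), with 7.30, 7.40, 7.21 and 7.37 in scratched and 7.36, 7.36, 7.57 and 7.72 in uninjured cultures. Jun was at 0.20 (SE 0.11, adjusted p = 0.386) and Jund at 0.17 (SE 0.10, adjusted p = 0.492).

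**Figure D2:**
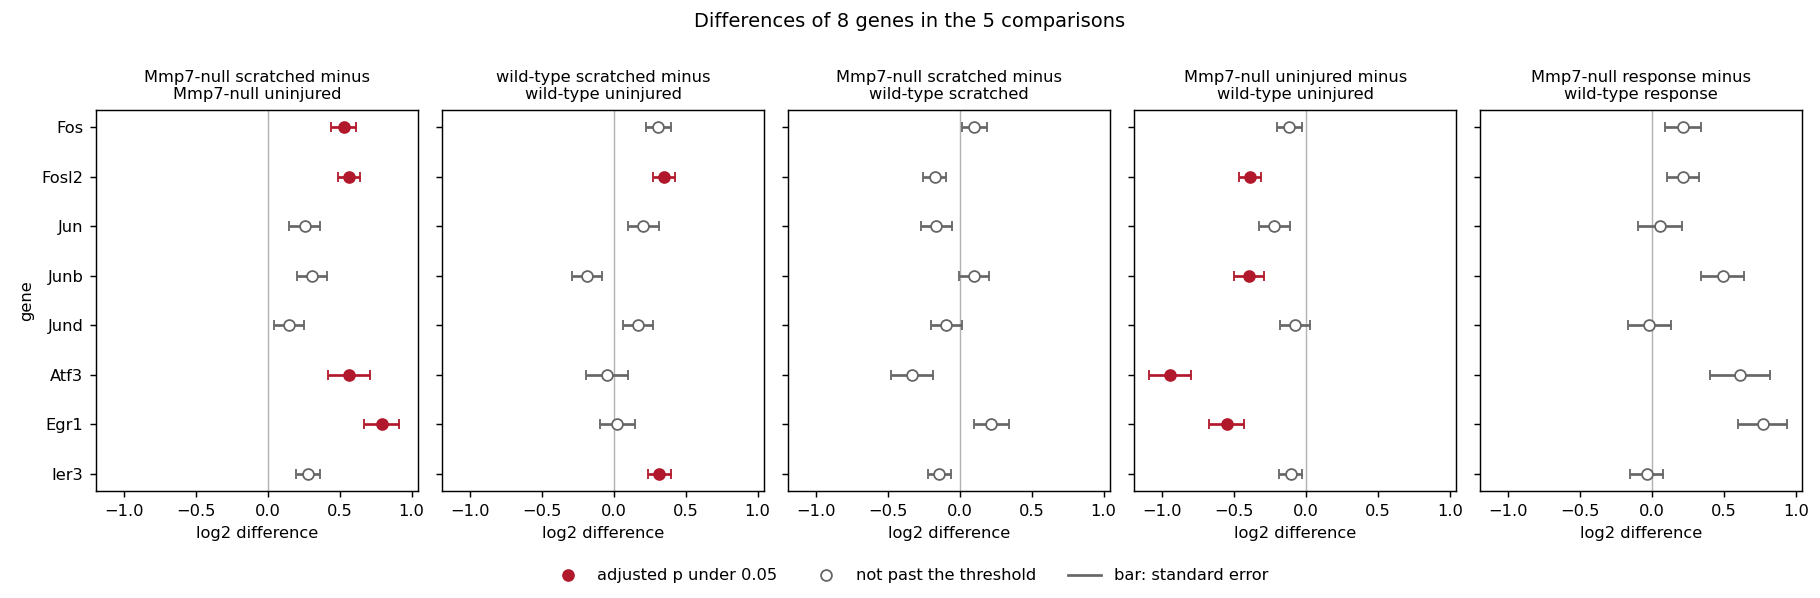
Log2 differences (horizontal axes) of 8 members in each of the 5 comparisons, with standard errors as bars; filled red points passed an adjusted p of 0.05. The scratch comparison in Mmp7-null cultures has 4 called points, that in wild-type cultures 2, that of uninjured genotypes 4 to the left of 0, and the other comparisons none.

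Before injury the question is whether cells without Mmp7 start from another level of these genes. In uninjured Mmp7-null cultures 4 of the 10 members were lower than in wild-type ones (Atf3, Egr1, Junb and Fosl2) and none was higher. Over all genes 2.5% were lower and 4.79% differed. The members' median was -0.17, against -0.01 over all genes. This comparison and the scratch comparison in Mmp7-null cultures share the 4 uninjured Mmp7-null arrays, so the low values there enter both.

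Atf3 averaged 5.81 ± 0.32 in uninjured Mmp7-null and 6.76 ± 0.07 in uninjured wild-type cultures (SD, n = 4 each). All Mmp7-null arrays were below all wild-type ones, and the difference was -0.95 (SE 0.15, adjusted p = 0.00219), to 0.519 of the wild-type intensity. Egr1 averaged 7.76 ± 0.28 and 8.31 ± 0.11 in the same order, a difference of -0.55 (SE 0.12, adjusted p = 0.0189) with no overlap. Fosl2 averaged 10.12 ± 0.16 in Mmp7-null and 10.51 ± 0.04 in wild-type cultures, a difference of -0.39 (SE 0.08, adjusted p = 0.0102) with no overlap. Its second, dim probe set gave -0.22 (SE 0.17) and was not called. For Junb the means were 7.11 ± 0.23 and 7.51 ± 0.18, a difference of -0.39 (SE 0.10, adjusted p = 0.0474). Its call was lost in most of the alternatives tried, by as little as a trended and robust variance (adjusted p = 0.0552).

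The leading Jun probe set gave -0.22 (SE 0.11, adjusted p = 0.361) and the second one -0.39 (SE 0.09). In a fit of all 45037 probe sets, in which 2.2% were called, the second one passed (adjusted p = 0.038), and leaving out any 1 of 7 arrays ended that call, with differences of -0.42 to -0.34. Its values were 7.92, 7.80, 7.93 and 8.11 in Mmp7-null cultures, against 8.39, 8.30, 8.22 and 8.41 in wild-type ones, with no overlap. Fos was at -0.12 (SE 0.09), Ier3 at -0.11 (SE 0.08) and Jund at -0.08 (SE 0.10), all uncalled, with the smallest adjusted p at 0.691.

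None of these genotype calls held once the spiked-in control was a block in the fit, where 57 of all genes were called against 872 without it. Atf3 then had -0.86 (SE 0.22, adjusted p = 0.134), Egr1 -0.47 (SE 0.16, adjusted p = 0.318), Fosl2 -0.28 (SE 0.09, adjusted p = 0.286) and Junb -0.21 (SE 0.13, adjusted p = 0.794). The genotypes share only the Phe set, with 2 Mmp7-null arrays and 1 wild-type array in each injury state. Within it Atf3 was at -0.85, Fosl2 at -0.25, Egr1 at -0.21 and Junb at -0.11; with 1 wild-type array, whose spread is assumed to be that of the other groups, these are values and not a test. Fos turned to 0.02 with the block and 0.11 within the Phe arrays.

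**Figure D3:**
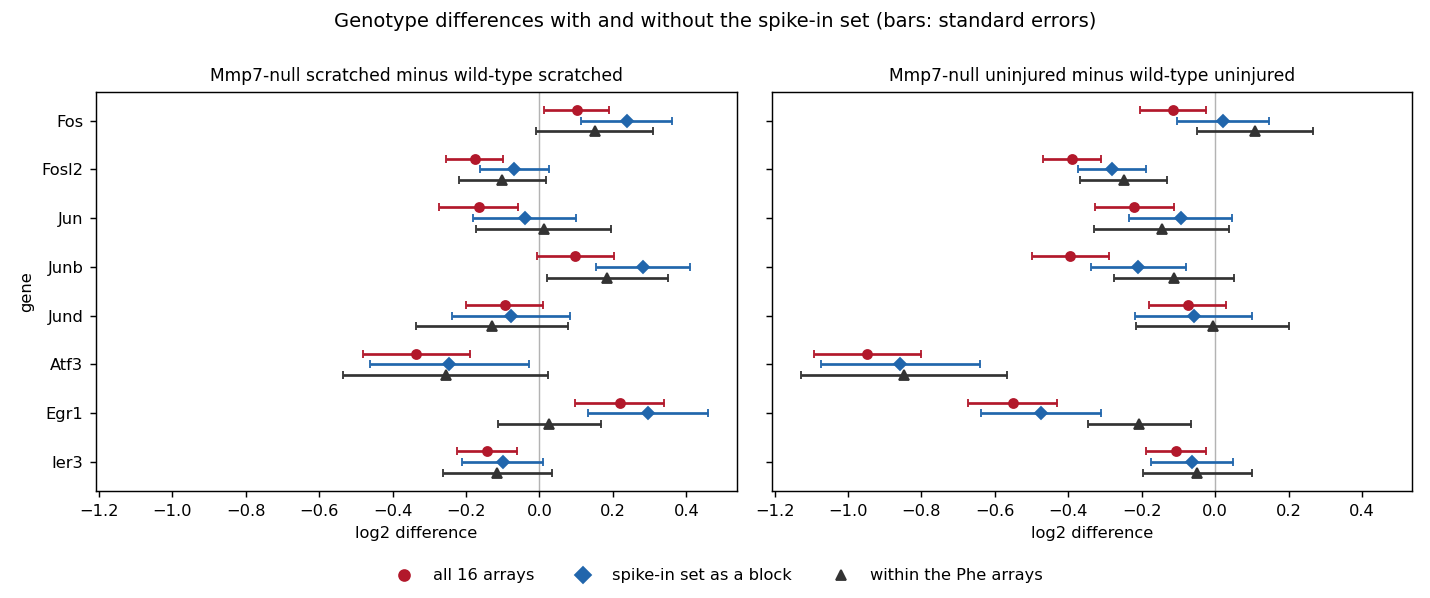
Genotype differences (log2, horizontal axes) of 8 members in scratched and in uninjured cultures, from all 16 arrays, with the control set blocked, and within the Phe arrays; bars are standard errors. In uninjured cultures Atf3 is at -0.95, -0.86 and -0.85 in the 3 estimates, and Egr1 at -0.55, -0.47 and -0.21.

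Among scratched cultures none of the 10 members was called between the genotypes by limma, although 6.21% of all genes did, and 2 members had an unadjusted p under 0.05. Egr1 averaged 8.55 ± 0.08 in scratched Mmp7-null and 8.34 ± 0.18 in scratched wild-type cultures, a difference of 0.22 (SE 0.12, adjusted p = 0.286). Atf3 averaged 6.38 ± 0.18 and 6.71 ± 0.23 in the same order, a difference of -0.33 (SE 0.15, adjusted p = 0.203). Fosl2 averaged 10.68 ± 0.15 and 10.86 ± 0.06, and all 4 Mmp7-null arrays were below all wild-type ones, but the difference of -0.18 (SE 0.08) had an adjusted p of 0.207. The second Jun probe set gave -0.25 (SE 0.09, adjusted p = 0.169) and the leading one -0.17 (SE 0.11). Fos (0.10), Junb (0.10), Jund (-0.09) and Ier3 (-0.14) were not called either, and the groups of these genes overlapped.

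The order of the 4 group means differed between genes. For Atf3 it was uninjured Mmp7-null (5.81), scratched Mmp7-null (6.38), scratched wild-type (6.71) and uninjured wild-type (6.76), and the last 2 differed by less than their spread. For Egr1 it was uninjured Mmp7-null (7.76), uninjured wild-type (8.31), scratched wild-type (8.34) and scratched Mmp7-null (8.55), and the middle 2 did not differ beyond their spread, while single arrays of the last 2 overlapped. For Fosl2 it was uninjured Mmp7-null (10.12), uninjured wild-type (10.51), scratched Mmp7-null (10.68) and scratched wild-type (10.86), and the third was not separated from the second by every array (10.46 against 10.48 to 10.57).

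The difference between the scratch responses, Mmp7-null minus wild-type, asks whether the injury response depends on the genotype. No member was called by limma, in a comparison that called 0.132% of all genes (24), and 3 members had an unadjusted p under 0.05. Egr1 had 0.77 (SE 0.17, adjusted p = 0.127). Atf3 had 0.61 (SE 0.21, adjusted p = 0.456) and Junb 0.49 (SE 0.15, adjusted p = 0.349). For Fos and Fosl2 it was 0.22 (SE 0.13) and 0.21 (SE 0.11), and for Jun, Jund and Ier3 it lay between -0.04 and 0.05. This comparison uses the same uninjured Mmp7-null arrays as those above. Within the Phe arrays, where the 2 wild-type groups had 1 array each and no spread of their own, Egr1 was at 0.23, Atf3 at 0.59 and Junb at 0.30.

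Low values of several members fell on the same arrays. Mmp7-null uninjured replicate 1 was the lowest of its group for 5 of 8 members (Fos, Jun, Junb, Jund and Ier3), with a mean deviation of -0.19 from the group means, and uninjured replicate 4 was the highest for 5. Wild-type scratched replicate 4 was the lowest for 5 (Fosl2, Jun, Jund, Atf3 and Ier3). In the uninjured Mmp7-null group, Egr1 was lower on both Lys arrays (7.61 and 7.45) than on both Phe arrays (7.94 and 8.06). The part of the array set in these values was not tested.

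Genes with the most similar pattern over the 16 arrays were found by the root mean square difference of centred log2 values. For Fosl2, whose own values varied by 0.29 about their mean, the nearest were Phlda1 (0.11), Hk2 (0.11) and Tshz1 (0.11). Phlda1, an early pleckstrin homology protein, had 10.93 to 11.31 in scratched and 10.23 to 10.56 in uninjured Mmp7-null cultures, and 11.02 to 11.25 in scratched and 10.90 to 10.97 in uninjured wild-type cultures. For Fos (0.24 about its mean) they were Nisch, Elk3 and Slc4a2, each at 0.12. For Atf3 (0.42) they were Sfn (0.20), Fbln5 (0.22) and Cyp1b1 (0.23). Egr1 (0.33) was nearest to Fads1 (0.16), Pmvk (0.17) and Phactr4 (0.17), Ier3 (0.19) to Actb (0.09), Tmc4 and Muc4 (both 0.11), and Junb (0.20) to Plxnb2 (0.10), Tomm40 and Psmd3 (both 0.11).

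Genes around AP-1 were read from 4 lists. The lists were written from general knowledge with earlier results of these data known, so their counts are descriptions and not tests. Of 36 other immediate early genes, 4 rose and 2 fell after a scratch in Mmp7-null cultures (4.72% of all genes changed), with a median of -0.01 against -0.02 over all genes. In wild-type cultures 6 rose and 1 fell (4.85% of all genes changed), with a median of 0.01 on both sides. Ccn1, a matrix protein induced by stretch and serum, rose by 1.64 in Mmp7-null (SE 0.12, adjusted p = 8.79e-06) and by 1.57 in wild-type cultures (adjusted p = 2.77e-06). Its relative Ccn2 rose by 0.81 and 0.61 in the same order. Phlda1 rose by 0.74 and Ier5 by 0.31 in Mmp7-null cultures, and Sgk1, a serum-induced kinase, rose by 0.38 in wild-type ones. Klf4, an epithelial differentiation factor, fell by 0.44 there.

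Between genotypes, 2 of the 36 were lower in scratched Mmp7-null cultures (Sik1 at -0.55 and Nr4a1 at -0.33), where 6.21% of all genes were called. In uninjured ones 2 were higher (Sgk1 at 0.36 and Klf10 at 0.33) and 2 were lower (Phlda1 at -0.58 and Klf4 at -0.38), where 4.79% of all genes were called. None of these 6 was called when the control set was blocked, where the differences were -0.57 for Sik1, -0.38 for Nr4a1, 0.31 for Sgk1, 0.22 for Klf10, -0.48 for Phlda1 and -0.45 for Klf4 (the smallest adjusted p was 0.0905, for Phlda1).

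Of 18 other basic leucine zipper genes, which pair or compete with AP-1 proteins, 2 rose in scratched Mmp7-null cultures, where 2.27% of all genes rose: the small Maf protein Mafg by 0.52 and Cebpd by 0.41. In wild-type cultures Mafk rose by 0.31, and Atf5 and Cebpb fell by 0.57 and 0.29 (4.85% of all genes changed). Between genotypes Cebpd was higher (0.35) and Mafk lower (-0.33) in scratched Mmp7-null cultures, and Atf5 was lower (-0.345) in uninjured ones, against 6.21% and 4.79% of all genes called. With the control set blocked Cebpd was at 0.57 (adjusted p = 0.0223), Mafk at -0.25 (adjusted p = 0.338) and Atf5 at -0.345 (adjusted p = 0.428).

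Of 21 measured kinases and serum response factor regulators that act upstream, 2 rose in Mmp7-null cultures after a scratch and 1 in wild-type cultures (2.27% and 2.55% of all genes rose), and limma called none between the genotypes (6 in scratched and 3 in uninjured cultures had an unadjusted p under 0.05). Elk3, a partner of serum response factor at early gene promoters, rose by 0.64 in Mmp7-null (adjusted p = 0.00127) and by 0.48 in wild-type cultures (adjusted p = 0.00673). The serum response factor coactivator Mrtfb rose by 0.28 in Mmp7-null cultures.

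Of 27 measured genes that textbooks list as AP-1 targets, 9 rose in scratched Mmp7-null and 5 in scratched wild-type cultures, with medians of 0.10 and 0.13, and none fell. Over all genes 2.27% and 2.55% rose, with medians of -0.02 and 0.01. Ptgs2, the inducible prostaglandin synthase, rose by 2.08 in Mmp7-null and 2.54 in wild-type cultures (adjusted p = 7.18e-05 and 3.47e-06). Csf2, a myeloid growth factor, rose by 1.03 and 1.38, and the matrix glycoprotein Tnc by 1.65 and 1.87. Timp1, a metalloproteinase inhibitor, rose by 1.44 in Mmp7-null and 0.78 in wild-type cultures. Sprr1a, a cornified envelope precursor, rose by 0.92 in Mmp7-null and 1.4995 in wild-type cultures. In scratched Mmp7-null against scratched wild-type cultures 4 were higher and 2 lower (6.21% of all genes were called), and in uninjured ones 2 were higher and 1 lower (4.79% of all genes). Tnc was higher by 1.78 in scratched and 2.00 in uninjured Mmp7-null cultures, and Tgm1, an epidermal crosslinking enzyme, was lower in both (-0.60 and -0.59). With the control set blocked Tnc stayed called in both states (adjusted p = 0.0356 and 0.0443), as did Timp1 (1.46) and Vegfa (-0.72) in scratched cultures, while Tgm1 and Csf2 did not.

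**Figure D4:**
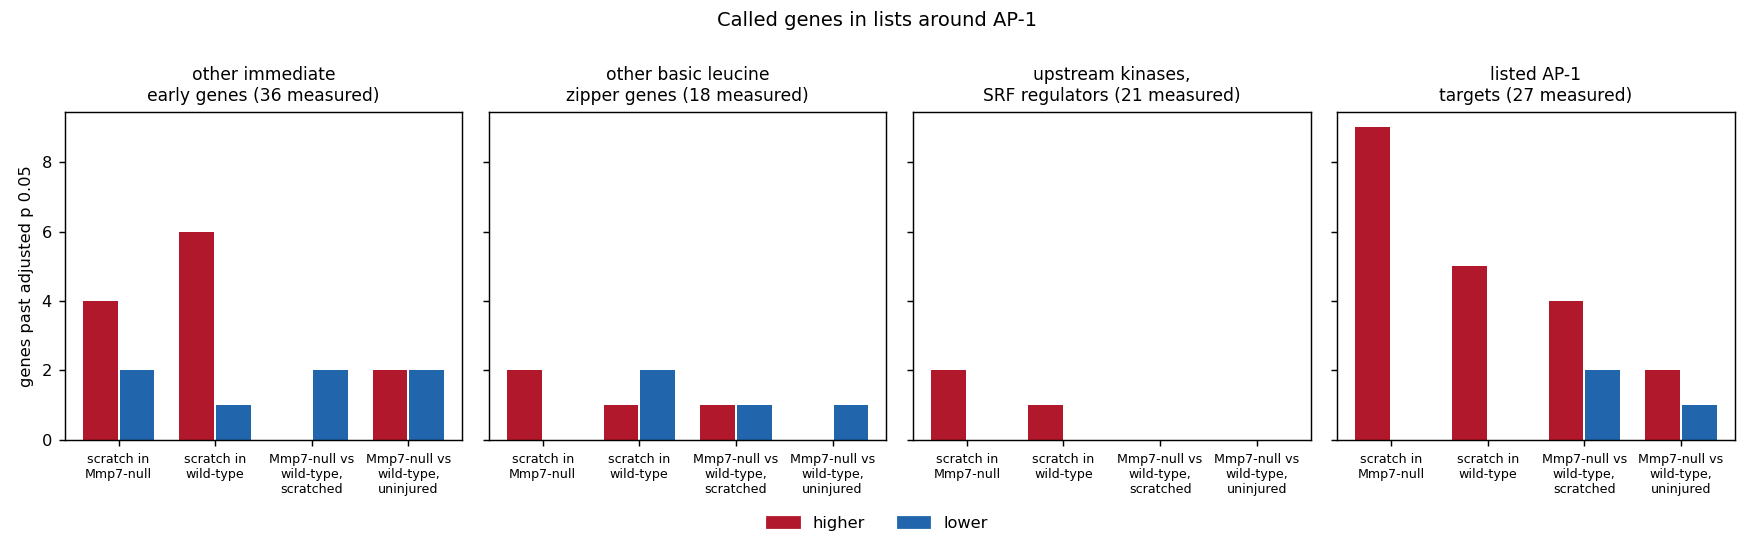
Number of genes (vertical axis) called higher or lower in each of 4 lists around AP-1, in the scratch and genotype comparisons. The listed AP-1 targets have 9 genes higher after a scratch in Mmp7-null and 5 in wild-type cultures, and the upstream list has at most 2.

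Markers of other cells were read in the same cultures. Sums of markers are sums of linear intensities, in which the brightest genes weigh most. Of 4 goblet cell markers, Agr2 and Muc5b rose with the scratch, by 1.44 and 2.64 in Mmp7-null and by 2.54 and 3.26 in wild-type cultures, and Muc5ac and Spdef were not called. The 4 summed to 1900 to 2850 in scratched and 585 to 994 in uninjured Mmp7-null cultures, and to 3990 to 4410 in scratched and 610 to 737 in uninjured wild-type cultures. Of the 6 basal cell markers 2 fell with the scratch in each genotype. The 6 summed to 15400 to 18900 in scratched and 22100 to 24000 in uninjured Mmp7-null cultures. In wild-type cultures the sum was 18900 to 20300 in scratched and 20600 to 23400 in uninjured ones. Between genotypes Agr2 (-0.74) and Dapl1 (-0.56) were lower and Krt14 higher (0.53) in scratched Mmp7-null cultures. In uninjured ones Krt5 was lower (-0.36), and no other goblet or basal cell marker was called. Of the 6 airway epithelium markers Cdh1 alone was called between genotypes, lower in uninjured Mmp7-null cultures (-0.23).

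Of 9 measured leukocyte markers 5 were above background, and Ptprc, Itgam, Cd3e and Tyrobp were not. None was called after a scratch in Mmp7-null cultures (Lyz2 at 0.41, adjusted p = 0.0722), and in wild-type cultures Cd68 alone rose, by 1.03. Between genotypes Cd68 was lower in scratched Mmp7-null cultures (-0.92), and no other was called. The leukocyte sum was 8920 to 11200 in scratched and 6450 to 8770 in uninjured Mmp7-null cultures, and 8720 to 11100 in scratched and 6510 to 8670 in uninjured wild-type cultures. Of 7 fibroblast markers 3 were above background (not Col1a1, Col1a2, Pdgfrb or Lum). Dcn alone rose with the scratch, by 1.23 in Mmp7-null and 1.58 in wild-type cultures. It was also the only one called between genotypes, higher in uninjured Mmp7-null cultures (1.00, adjusted p = 0.011 by limma). The 7 summed to 136 to 161 in scratched and 68.1 to 101 in uninjured Mmp7-null cultures. In wild-type cultures the sum was 95.6 to 115 in scratched and 53.3 to 64.6 in uninjured ones. Of 5 smooth muscle markers Acta2 alone was called: it rose by 1.07 with the scratch in wild-type cultures, and it was higher in Mmp7-null cultures by 1.10 in scratched and 1.37 in uninjured ones. The 5 summed to 271 to 539 in scratched and 170 to 283 in uninjured Mmp7-null cultures, and to 163 to 273 in scratched and 88.6 to 123 in uninjured wild-type cultures. All 5 endothelial markers were at background.

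The alveolar markers moved in opposite directions between the genotypes. Ager and Hopx were lower in Mmp7-null cultures (-2.35 and -0.66 in scratched, -2.29 and -0.34 in uninjured ones), Sftpc was higher (1.80 and 1.504), and the other 2 were not called. Their sum was 2690 to 3790 in Mmp7-null and 5790 to 6830 in wild-type cultures after scratching, and 3410 to 4110 in Mmp7-null and 6380 to 7070 in wild-type cultures without injury. Of 6 multiciliated markers 5 were higher in Mmp7-null cultures in either state. They summed to 15800 to 17100 in Mmp7-null and 11800 to 13100 in wild-type cultures after scratching, and to 14000 to 15500 in Mmp7-null and 11200 to 12500 in wild-type cultures without injury. The part of these cells in the values of the early genes was not tested.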

How the data were processed

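The deposited values are linear microarray intensities of 45101 probe sets on 16 arrays, background-corrected, normalized and summarised by the authors with RMA, per the submitters' processing notes. The labels name the Mouse Genome 430A 2.0 array, whereas the table and its annotation are of the larger 430 2.0 design. Log2 was taken, 64 control probe sets were left out, and of the rest 34945 had 1 symbol, 932 several and 9160 none. For each of 18193 genes the probe set with the highest mean was kept. limma 3.58.1 in R 4.3.3 fitted a mean per group over all 16 arrays (12 residual degrees of freedom, 2-sided tests), with Benjamini-Hochberg adjustment over all genes, a threshold of 0.05 and 5 comparisons. Other probe sets of a member were tested over all 45037. Data were simulated for the scratch comparison in Mmp7-null cultures, with 18193 genes. Of 100 genes changed by a log2 of 0.5, 62% were recovered, and of 100 changed by 1, 97%, with 11 false calls of 170. The simulated noise was independent for each gene and array, and only brighter genes were changed. It held no deviation shared by the genes of an array and no control sets, so these rates need not hold for the real arrays. With 4 arrays per group, the precision of a group mean is limited by the number of arrays. The members, lists, tests and alternatives were chosen with earlier results of these data known. The genes named besides the members were, per list and comparison, up to 4 called genes with the smallest adjusted p. Per called member, the 3 genes with the most similar pattern among its candidates were also named. The alternatives were other array sets, blocks, normalizations, filters and variance models. No protein comparison was made.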

Additional observations from a re-analysis of the deposited data

Results flagged for a closer look

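In 56 groups of 4 arrays, 1 per probe set and group, 6 held an array that stood far from the other 3 by Dixon's criterion, where chance gives about 1 in 20 groups (2.8). Fos was low at 7.94 in Mmp7-null uninjured replicate 1 (nearest array 8.23), and Ier3 was low at 12.03 in the same culture (nearest 12.30). Leaving that array out ended 2 of the 4 genotype calls in uninjured cultures (Egr1 at -0.50, adjusted p = 0.0715, and Junb at -0.28, adjusted p = 0.110) and the Atf3 call after a scratch (0.56, adjusted p = 0.0933). With all arrays these differences were -0.55, -0.39 and 0.57. The other 4 were in probe sets at or near background. The leading Fosl1 probe set was at 2.80 in Mmp7-null scratched replicate 3 (nearest 2.19). The second Fosl1 probe set was at 2.17 in wild-type scratched replicate 3, and Fosb was at 2.15 on the same array. The second Jund probe set was at 2.70 in wild-type uninjured replicate 4 (nearest 2.14).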

How the results depend on the processing

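Over the alternatives, 1010 of the members' values kept direction and side of the threshold, 72 lost the call, 7 gained it and 31 changed sign. The 1010 came from 50 results, most of them uncalled in the main fit and so unable to lose a call. All 72 lost calls came from 11 results. Of the pathway genes' values 713 kept direction and side of the threshold and 151, from 33 results, lost the call. The cause of these changes was not tested. Leaving out 1 array at a time gave 3 to 4 members called after a scratch in Mmp7-null cultures, 0 to 2 after one in wild-type cultures, 2 to 4 between uninjured genotypes (2 without Mmp7-null uninjured replicate 1), and 0 in the other comparisons. In the same comparisons, all genes called ran from 516 to 816, 591 to 884 and 480 to 925, and from 809 to 1135 between scratched genotypes and 8 to 28 for the difference of responses. The lowest counts came without Mmp7-null uninjured replicate 2 (516) or 3 (528), without Mmp7-null uninjured replicate 1 (480) or wild-type uninjured replicate 1 (534), and without Mmp7-null scratched replicate 3 (8). For the scratch in wild-type cultures 1 member was called with only the 8 arrays compared, the replicate block, all probe sets, the mean of a gene's probe sets, arrays centred on their medians, or no doubtful arrays, and 0 within the Trpn or Phe set. The Phe set holds 1 wild-type array per group, whose spread was taken from the other groups, so its counts say nothing about stability. For the scratch in Mmp7-null cultures it was 2 within the Lys and 0 within the Phe set, and between uninjured genotypes 2 with 8 arrays, and 0 with the set block or within the Phe set. All genes called were, for the scratch in Mmp7-null cultures, 402 with 8 arrays, 286 within Lys and 79 within Phe, and in wild-type cultures 418 within Trpn, 204 within Phe and 1405 with array weights. Between scratched genotypes they were 527 with 8 arrays, 252 with the set block, 223 within Phe and 1745 with array weights, and between uninjured ones 57 with the set block, 42 within Phe and 1310 without doubtful arrays. For the difference of responses they were 14 with the replicate block, 37 without the dimmest 40% of genes, 100 with array weights, 49 after repeated quantile normalization, 5 with centred arrays, 15 with a pseudocount of 16 and 50 without doubtful arrays.

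Centring changed the split of calls, higher against lower, to 344 and 594 (464 and 419 without it) after a scratch in wild-type cultures, to 598 and 311 (599 and 531) between scratched genotypes, and to 2 and 3 (5 and 19) for the difference of responses. Signs turned for uncalled values only. Between uninjured genotypes Fos was at 0.021 with the set block and 0.11 within Phe. After a scratch in wild-type cultures Egr1 was at -0.073 within Trpn and -0.024 with centred arrays, and Atf3 at 0.099 within Phe, 0.015 with array weights, 0.0067 after repeated normalization and 0.058 without doubtful arrays. Jun was at 0.011 between scratched genotypes within Phe. In the difference of responses Jund was at 0.038 with the mean of probe sets and 0.024 with centred arrays, Jun at -0.028 with array weights and Ier3 at 0.0066 with centred arrays. Over the fits that left out 1 array, the lowest and highest Jund differences were -0.13 and 0.00080 between uninjured genotypes (-0.075 with all arrays). Between scratched genotypes they were -0.17 and 0.00025 (-0.094 with all arrays). After a scratch in wild-type cultures Egr1 ranged over -0.036 to 0.093 and Atf3 over -0.10 to 0.064 in these fits. In the difference of responses the ranges were -0.095 to 0.075 for Jund, -0.049 to 0.12 for Jun and -0.11 to 0.0067 for Ier3. For the second Fosl2 probe set the range was -0.17 to 0.076. The mean of a gene's probe sets brought Jun past the threshold after a scratch in Mmp7-null cultures (0.29, adjusted p = 0.0414) and between uninjured genotypes (-0.30, adjusted p = 0.0322). The same setting ended the Fosl2 call after a scratch in wild-type cultures (0.28, adjusted p = 0.0886) and between uninjured genotypes (-0.31, adjusted p = 0.0568). The deviations of same-numbered arrays from their group means had correlations of -0.22 to 0.32 across genes. Arrays with different numbers were not compared, so whether same-numbered arrays share an animal or a batch was not tested. With the replicate number as a block, 3 members were called after a scratch in Mmp7-null and 1 in wild-type cultures. The count was 0 between scratched genotypes, 4 between uninjured ones and 0 for the difference of responses. Probe sets near background carry no usable difference, which limits Fosb and Fosl1.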
